A study of Homo sapiens with 6 samples.

Results

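The genes described here make cholesterol, move it within and out of the cell, and sense its level. They are 29 genes of 16715 distinct identifiers in the table of expression values. They were listed by symbol for their known roles, with earlier results of these data known. All 29 were found through their Ensembl identifiers. By role, 8 belong to the mevalonate part of the pathway, 3 to squalene and the first sterol ring, 7 to the steps from lanosterol to cholesterol, 4 to sterol sensing and 4 to transport and storage, and 3 are targets of the liver X receptors (LXR). Across the first 5 groups, 19 are known targets of the transcription factor SREBP2. RNA was sequenced from HCT116 cells, an established human colorectal carcinoma line, at passages 7 to 10. There were 3 control libraries and 3 libraries of cells given 5aza at 5 µM for 48 hours and then fresh medium for another 48 hours. How the control cells were handled in that time, vehicle included, is not stated in the labels. All libraries come from 1 line with no change of genotype. Nothing in the labels says that replicates were separate cultures, so p-values measure the spread between these libraries, which may be technical.

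Cholesterol is built from acetyl-CoA through mevalonate, isoprenoid diphosphates, squalene and lanosterol. When membrane sterol is low, the escort protein SCAP carries SREBP2 from the endoplasmic reticulum to the Golgi, where proteases release its active part, which then switches on genes of sterol synthesis and uptake. INSIG proteins hold SCAP back when sterols are plentiful. The LXR nuclear receptors respond to oxysterols and switch on genes that export cholesterol or limit its uptake, so SREBP2 targets and LXR targets often move in opposite directions in sterol-loaded cells. The labels call the treatment 5aza, while the sample descriptions call the treated libraries DAC, and which compound was meant is not settled here. Both names are used for cytidine analogues that trap DNA methyltransferases, so that DNA methylation is lost as cells divide.

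Promoter sequences are shown for a few members because letters like those that SREBP2, its partner NF-Y or LXR bind occur in them. They are from RefSeq on GRCh38.p14, and each holds the 250 bases before the annotated start, read 5′ to 3′ along the gene. SREBF2 (chr22:41832855-41833104, plus strand) encodes SREBP2 itself, FDPS (chr1:155308616-155308865, plus strand) and HSD17B7 (chr1:162790452-162790701, plus strand) encode enzymes of the pathway, INSIG1 (chr7:155297628-155297877, plus strand) had the largest fall, and ABCA1 (chr9:104928156-104928405, minus strand) had the largest rise. In the first 4 sequences, capitals mark, where they occur, CCAAT, the letters bound by NF-Y, a partner of SREBP2, which read ATTGG where they lie on the other strand, and TCACNCNAC, letters like those of a sterol regulatory element. In ABCA1, capitals mark a direct repeat of the kind LXR binds (DR4).
SREBF2: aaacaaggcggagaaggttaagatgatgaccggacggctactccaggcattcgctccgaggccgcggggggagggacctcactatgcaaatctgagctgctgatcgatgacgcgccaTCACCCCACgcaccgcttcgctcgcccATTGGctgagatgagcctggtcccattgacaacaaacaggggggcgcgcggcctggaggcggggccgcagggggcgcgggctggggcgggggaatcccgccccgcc
INSIG1: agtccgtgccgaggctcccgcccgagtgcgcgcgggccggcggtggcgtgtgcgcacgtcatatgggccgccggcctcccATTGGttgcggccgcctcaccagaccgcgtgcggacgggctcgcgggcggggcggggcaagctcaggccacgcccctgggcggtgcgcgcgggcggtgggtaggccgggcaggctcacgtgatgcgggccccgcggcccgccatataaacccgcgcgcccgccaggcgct
FDPS: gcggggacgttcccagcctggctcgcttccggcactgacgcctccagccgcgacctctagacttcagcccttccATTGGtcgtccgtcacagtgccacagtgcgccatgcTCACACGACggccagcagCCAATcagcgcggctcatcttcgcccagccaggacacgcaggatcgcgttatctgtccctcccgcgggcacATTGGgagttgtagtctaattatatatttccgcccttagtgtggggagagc
HSD17B7: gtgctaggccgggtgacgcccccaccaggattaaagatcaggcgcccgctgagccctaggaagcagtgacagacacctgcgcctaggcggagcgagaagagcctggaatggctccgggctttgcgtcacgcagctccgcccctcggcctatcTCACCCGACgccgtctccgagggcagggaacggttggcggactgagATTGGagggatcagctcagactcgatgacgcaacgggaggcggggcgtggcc
ABCA1: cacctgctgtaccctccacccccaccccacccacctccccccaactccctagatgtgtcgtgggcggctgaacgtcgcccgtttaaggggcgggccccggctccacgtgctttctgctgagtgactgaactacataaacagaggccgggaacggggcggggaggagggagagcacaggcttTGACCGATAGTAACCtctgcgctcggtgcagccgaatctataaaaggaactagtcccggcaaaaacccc

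Of the 29 members, 25 had at least 1 promoter window in the RefSeq table, with 34 windows of 300 bases in all (250 before and 50 after a start). ACAT2, FDFT1, SQLE and the LXR target ABCG1 had no window and were not searched. CCAAT was found on either strand in 14 of 16 SREBP2 targets with a window (87.5%) and in 4 of the 9 other members (44.4%), against 43.2% of tested genes with a window and 34.6% of all windows. The sterol-element letters were found in SREBF2, FDPS and HSD17B7, which is 3 of 16 SREBP2 targets, and in 0 of the 9 other members. They occur in 3.38% of tested genes with a window and in 2.55% of all windows. In SREBF2 they read TCACCCCAC and begin 133 bases before the annotated start, with CCAAT on the other strand from 106 to 102 bases before it. The DR4 repeat was searched as GGTNA and GGTCA with 5 bases between them. Among the members with a window, it was found in ABCA1 alone, from 69 to 55 bases before the start, and in 0.239% of all windows. These letters were chosen with the windows in view, overlapping matches were each counted, and a match is not a measured binding site.

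**Figure D1:**
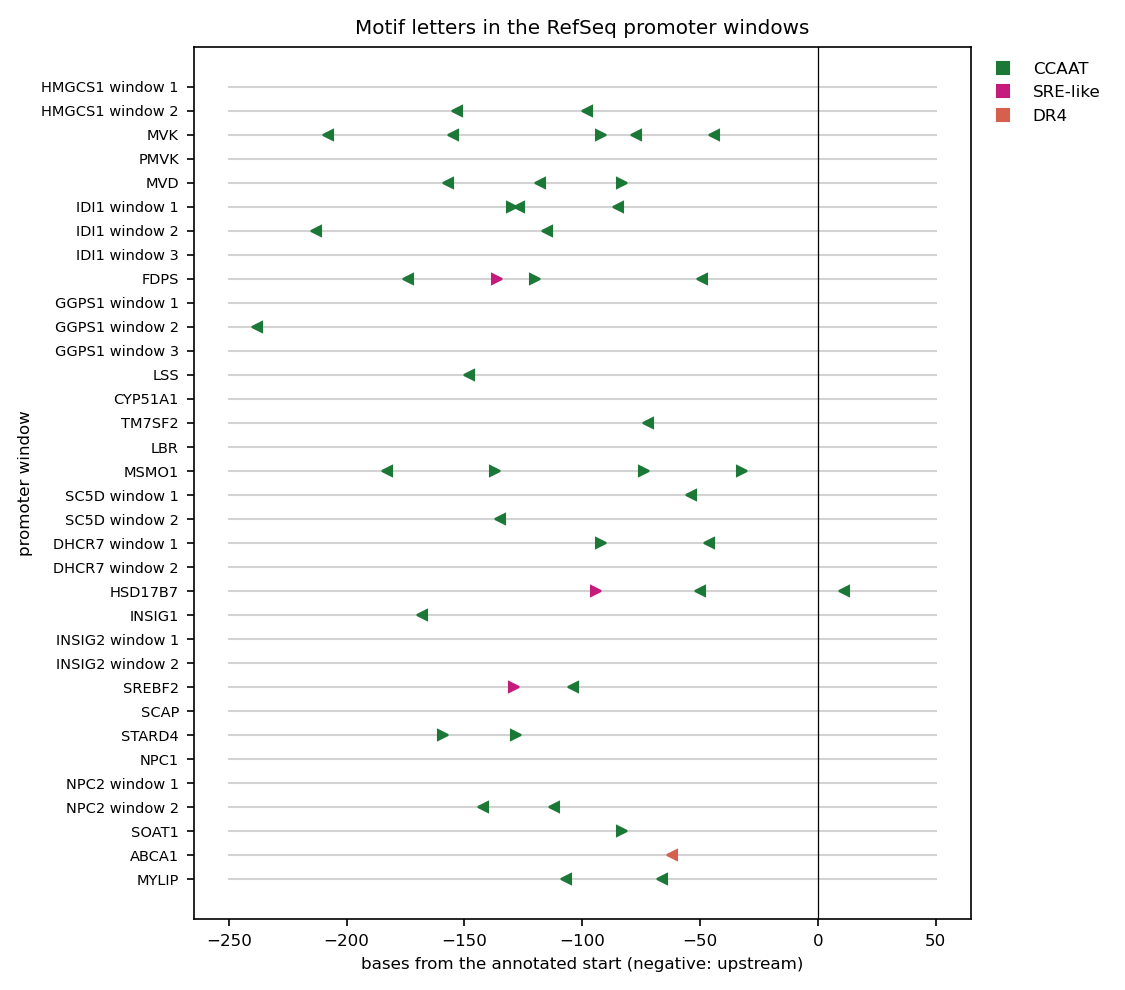
Positions of motif letters in the 34 promoter windows of 25 members (rows), in bases from the annotated start (negative is upstream); triangles pointing right lie on the gene's strand and those pointing left on the other. CCAAT is spread over most SREBP2 target windows, the sterol-element letters lie in FDPS, HSD17B7 and SREBF2, and DR4 in ABCA1.

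The members' windows are rich in CpG, the dinucleotide that DNA methyltransferases modify. The median was 27.5 CpG per window, against 25 for windows of tested genes and 14 for all windows. INSIG1 had the most, with 48, and LBR the fewest, with 8. ABCA1 had 23 and MYLIP 29. INSIG1 and LBR both fell, so the range of the members that fell holds every member and cannot set ABCA1 and MYLIP apart. DNA methylation was not measured in the data used here.

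Levels are FPKM, fragments scaled to transcript length and library size, so that genes can be compared with each other. Summed FPKM was 601916 to 628399 in control and 577735 to 592051 in 5aza libraries, so every 5aza sum lay below every control sum. The fit behind the report did not rescale for this, and its part in the falls was not tested. From values under 0.1 FPKM, the most common ratio between control replicate 1 and each other library lay between -0.03 and 0.06 on the log2 scale, which would put the libraries at like depth if these are single reads. That ratio rests on few genes, 16 to 28 for the 5aza libraries and 41 to 57 for the other control libraries. Genes listed at 0 numbered 1663 to 1761 in control and 755 to 801 in 5aza libraries. The absolute depth is unknown. Epithelial markers fit the labelled line: KRT8 was at 945 to 1164 FPKM and EPCAM at 151 to 167, although VIL1, LGR5 and CDX1 stayed under 0.5 FPKM. Markers of other cell types were low. The summed fibroblast list was at 4.57 to 4.95 FPKM in control and 6.71 to 7.71 in 5aza libraries, nearly all of it COL1A1, and the leukocyte list at 3.19 to 4.29 and 5.55 to 6.18, mostly CD68. The part of these markers in the results was not tested. In bulk RNA, fewer cells of a kind and less RNA per cell cannot be told apart.

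Genes of cholesterol synthesis and SREBP2 control were lower in 5aza libraries, by 0.17 to 0.74 on the log2 scale where they passed the test. The LXR targets ABCA1 and MYLIP were higher, but ABCA1 entered the test only through its 5aza values. The MYLIP call was lost whichever 1 library was dropped. Of 29 members, 16 fell, 2 rose and 11 did not pass the test (limma, adjusted p under 0.05 over all genes tested). Over all 12360 genes tested, 13.1% fell and 10.6% rose. The members' median log2 fold change was -0.20, beside -0.01 over all genes. All 3 5aza libraries lay below all 3 control libraries in 18 members, and above them in 2, beside 22.6% and 19.6% of genes tested. Falls were more common among well expressed genes, so the 26 members with a mean of 5 to 150 FPKM were also set beside all 8268 genes in that range, of which 15.8% fell and 9.65% rose. Of those 26, 16 fell and 0 rose. The range leaves out the 3 LXR targets, which were lower. After a loess fit of fold change against expression was subtracted, 12 of 29 members fell and 1 rose, while over all genes 1426 rose and 977 fell in place of 1310 and 1619. Without control replicate 1, 2 or 3, falls over all genes came to 1035, 940 and 1521. Without 5aza replicate 1, 2 or 3, they came to 1207, 1085 and 987. Falls among the members in these fits numbered 14, 13, 15, 15, 14 and 12, in the same order.

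**Figure D2:**
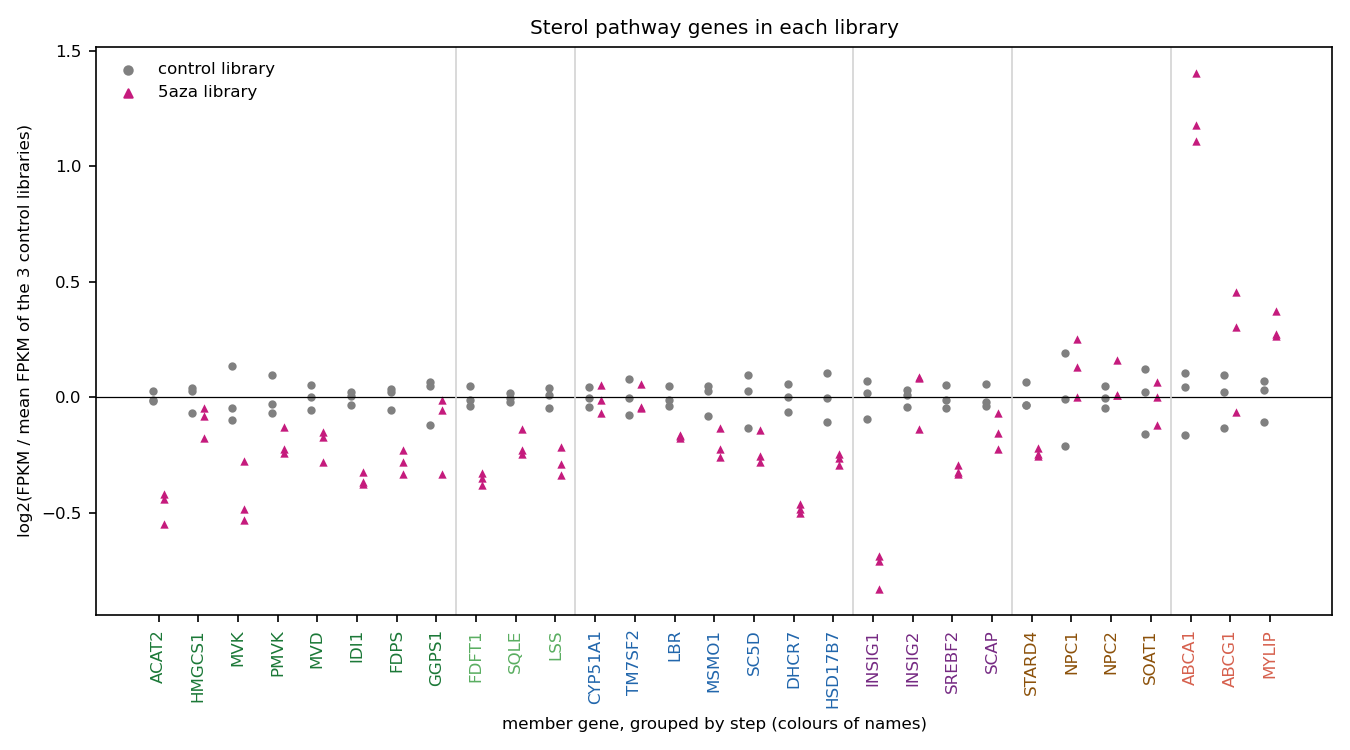
Each point is 1 library's FPKM over the mean of the 3 control libraries, on a log2 scale, for the 29 members grouped by step (horizontal axis); circles are control and triangles 5aza libraries. The 5aza triangles lie under all circles in 18 members and over them in ABCA1 and MYLIP.

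Of 4 genes of sterol sensing, 2 fell, 0 rose and 2 did not pass. INSIG1 (ENSG00000186480, chromosome 7, 155297776 to 155310235), which retains SCAP in the endoplasmic reticulum and is itself a sensitive SREBP2 target, was at 28.9, 25.7 and 27.9 FPKM in control libraries and at 17.1, 16.8 and 15.5 in 5aza libraries. No other member fell as far, and the groups are far apart. The ratio of means was 0.598, a log2 change of -0.74 (SE 0.059, adjusted p = 2.51e-04). Its paralog INSIG2, which has the same role but is not driven by SREBP2 in most cells, was at 6.26, 6.47 and 6.58 FPKM in control and 6.82, 6.83 and 5.85 in 5aza libraries. Those values overlap, and the 95% interval of the log2 change ran from -0.17 to 0.19. INSIG1 thus exceeded INSIG2 by 3.98 to 4.62 times in control libraries and by 2.46 to 2.64 times in 5aza libraries, with no overlap. With 3 libraries against 3, an exact permutation test of such a ratio cannot go below 0.10, and none was run.

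SREBF2 (ENSG00000198911, chromosome 22, 41833079 to 41907308), whose promoter is printed above, was at 50.6, 54.2 and 51.8 FPKM in control and 41.5, 42.6 and 41.7 in 5aza libraries. Every 5aza library lay under every control library, and the log2 change was -0.31 (SE 0.037, adjusted p = 0.00123). SCAP, the escort, was at 25.1, 26.6 and 24.8 FPKM in control and 24.3, 21.8 and 22.9 in 5aza libraries. Its groups did not overlap but it did not pass the test (log2 change -0.15, adjusted p = 0.0753). It passed without 5aza replicate 1 (adjusted p = 0.0489).

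In the mevalonate part, 6 of 8 genes fell, none rose and 2 missed the threshold, with a median log2 change of -0.24. ACAT2, the cytosolic thiolase that joins acetyl-CoA units, was at 15.7, 15.2 and 15.3 FPKM in control and 11.5, 11.4 and 10.5 in 5aza libraries. This was the largest fall of the group (log2 change -0.46, SE 0.052, adjusted p = 0.00103). HMGCS1, the synthase of the next step, was at 28.6, 26.7 and 28.8 FPKM in control and 27.2, 24.8 and 26.5 in 5aza libraries. Its groups overlap, and the 95% interval of its log2 change was -0.22 to 0.015 (adjusted p = 0.185).

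The kinases and the decarboxylase that turn mevalonate into isopentenyl diphosphate fell. MVK, mevalonate kinase, was at 13.5, 15.9 and 14.0 FPKM in control and 12.0, 10.4 and 10.0 in 5aza libraries (log2 change -0.42, SE 0.086, adjusted p = 0.0121). PMVK, phosphomevalonate kinase, went from a mean of 28.3 ± 1.70 to 24.6 ± 1.04 FPKM (SD, n = 3; limma adjusted p = 0.0368). MVD, the decarboxylase, went from 52.5 ± 1.92 to 45.7 ± 2.21 FPKM (SD, n = 3; limma adjusted p = 0.0195). PMVK no longer passed when control replicate 1 (adjusted p = 0.0986) or 2 (0.0740), or 5aza replicate 1 (0.103) or 3 (0.105), was dropped. MVD no longer passed when control replicate 2 (adjusted p = 0.0653) or 5aza replicate 3 (0.0526) was dropped. With the expression trend removed, adjusted p was 0.0775 for PMVK and 0.0751 for MVD.

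IDI1, the isomerase of isopentenyl diphosphate, had tight groups, at 38.5, 39.0 and 37.5 FPKM in control and 29.6, 30.7 and 29.7 in 5aza libraries (log2 change -0.35, SE 0.035, adjusted p = 6.03e-04). FDPS, which makes farnesyl diphosphate, was the most abundant gene of this part, at 112, 112 and 106 FPKM in control and 90.4, 93.7 and 87.1 in 5aza libraries (log2 change -0.28, adjusted p = 0.00276). FDPS has close pseudogene copies, so its value is uncertain to the extent that reads were shared out among them. GGPS1, which makes geranylgeranyl diphosphate on a branch that leads away from sterols, was at 17.2, 17.0 and 15.2 FPKM in control and 15.8, 13.1 and 16.3 in 5aza libraries. Those groups overlap (95% interval of the log2 change -0.34 to 0.082, adjusted p = 0.342).

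All 3 genes of squalene and the first ring fell. FDFT1, squalene synthase and the first step given over to sterols, was at 66.6, 70.7 and 67.8 FPKM in control and 53.7, 52.6 and 54.5 in 5aza libraries (log2 change -0.35, SE 0.035, adjusted p = 6.02e-04). SQLE, squalene epoxidase, an oxygen-dependent control point, went from 36.7 ± 0.499 to 31.9 ± 1.30 FPKM (SD, n = 3; limma adjusted p = 0.0106). LSS, which closes the rings to lanosterol, went from 24.3 ± 0.726 to 20.0 ± 0.872 FPKM (SD, n = 3; limma adjusted p = 0.00547). These 3 calls held under all 14 alternatives run.

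From lanosterol to cholesterol, 4 of 7 genes fell and 3 missed the threshold, and a large fall stood beside genes with almost no difference. DHCR7 (ENSG00000172893, chromosome 11, 71428193 to 71452868), a reductase of the last steps, was at 62.6, 60.3 and 57.6 FPKM in control and 42.5, 43.7 and 43.0 in 5aza libraries. After INSIG1 it had the largest fall of the 29 (log2 change -0.48, SE 0.038, adjusted p = 2.51e-04). CYP51A1, the lanosterol demethylase, was at 39.5, 40.8 and 38.5 FPKM in control and 41.1, 39.3 and 37.7 in 5aza libraries. TM7SF2, a sterol reductase, was at 92.7, 98.0 and 88.0 FPKM in control and 90.2, 89.9 and 96.8 in 5aza libraries. Both sets of values overlap, with 95% intervals of the log2 change of -0.11 to 0.091 for CYP51A1 and -0.12 to 0.10 for TM7SF2. The sign of both estimates turned with the normalization. DHCR7 was at 0.615 to 0.675 times the level of TM7SF2 in control libraries and at 0.444 to 0.486 times in 5aza libraries.

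LBR, a nuclear envelope protein with the same reductase activity as TM7SF2 and not counted as an SREBP2 target here, was at 70.1, 67.3 and 66.1 FPKM in control and 60.6, 60.0 and 60.4 in 5aza libraries (log2 change -0.17, adjusted p = 0.00967). Its log2 change was -0.10 under quantile normalization and -0.10 with the expression trend removed, where its adjusted p was 0.0721. MSMO1, a methylsterol oxidase, went from 27.5 ± 1.29 to 23.9 ± 1.06 FPKM (SD, n = 3; limma adjusted p = 0.0256). It no longer passed when control replicate 2 (adjusted p = 0.0848) or 3 (0.0668), or 5aza replicate 2 (0.0804) or 3 (0.0771), was dropped. HSD17B7, a ketosteroid reductase with a close pseudogene copy, went from 11.6 ± 0.864 to 9.61 ± 0.164 FPKM (SD, n = 3; limma adjusted p = 0.0234). Its call was lost without any 1 library other than control replicate 3, with adjusted p between 0.0550 and 0.0695. SC5D, a sterol desaturase, was at 21.4, 18.3 and 20.5 FPKM in control and 18.2, 16.8 and 16.5 in 5aza libraries. It lay just past the threshold (log2 change -0.22, adjusted p = 0.0509) and passed without control replicate 2 (0.0239).

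**Figure D3:**
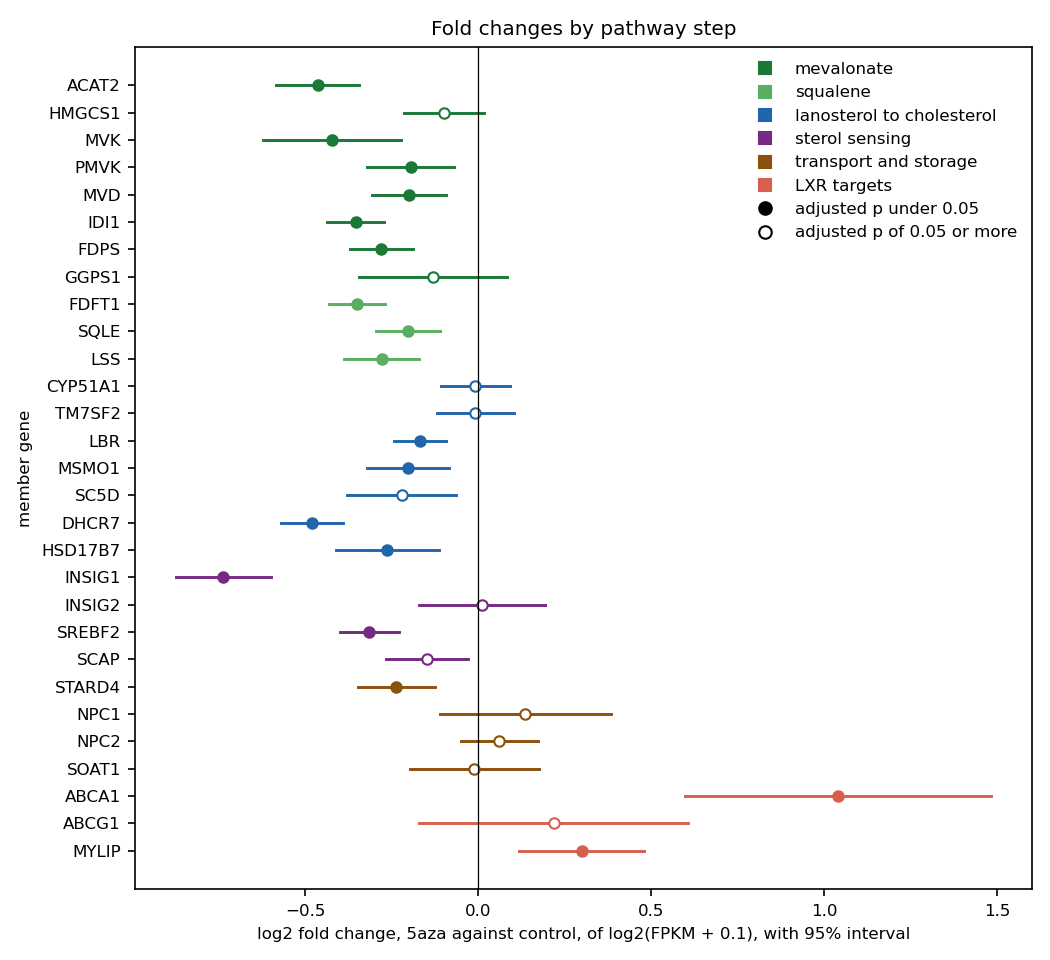
Log2 fold change of 5aza against control for each member (rows, in pathway order, coloured by step) on the log2(FPKM + 0.1) scale, with 95% intervals from limma; filled points passed the test. INSIG1 lies lowest at -0.74 and ABCA1 highest at 1.04, and CYP51A1, TM7SF2, INSIG2 and SOAT1 lie near 0.

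Among genes of transport and storage, 1 of 4 fell and 3 did not pass. The gene that fell was STARD4, a carrier of cholesterol between membranes and the 1 gene of the group counted as an SREBP2 target here. It was at 14.1, 14.1 and 15.1 FPKM in control and 12.2, 12.1 and 12.4 in 5aza libraries (log2 change -0.24, SE 0.048, adjusted p = 0.0118). NPC1 and NPC2, which bring cholesterol out of lysosomes, had overlapping groups: NPC1 was at 11.1 to 14.7 FPKM in control and 12.9 to 15.4 in 5aza libraries, and NPC2 at 128 to 137 and 133 to 148. Their 95% intervals ran from -0.11 to 0.38 and from -0.050 to 0.17 on the log2 scale. SOAT1, which esterifies cholesterol for storage, was at 14.1 to 17.1 FPKM in control and 14.4 to 16.4 in 5aza libraries (adjusted p = 0.929).

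The LXR targets were the least abundant members and had the only rises among the 29. ABCA1 (ENSG00000165029, chromosome 9, 104781002 to 104928237), the exporter that loads cholesterol onto apolipoprotein acceptors, was at 0.385, 0.369 and 0.320 FPKM in control and 0.772, 0.948 and 0.810 in 5aza libraries. The lowest 5aza library was above the highest control library. The ratio of means was 2.36, a log2 change of 1.04 on the log2(FPKM + 0.1) scale (SE 0.19, adjusted p = 0.00805). The size of this low gene's change moved with the scale: it was 0.44 with a pseudocount of 1, 1.21 with a pseudocount of 0.01 and 0.69 under quantile normalization. ABCA1 was under 0.5 FPKM in all control libraries, so it entered the test only through its 5aza values. It also rose where no filter on low values was used, and was not tested where a mean of 1 FPKM was required.

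MYLIP (ENSG00000007944, chromosome 6, 16129125 to 16148248), a ubiquitin ligase that marks lipoprotein receptors for degradation, was at 3.97, 4.48 and 4.37 FPKM in control and 5.14, 5.53 and 5.16 in 5aza libraries. The groups do not overlap, and the log2 change was 0.30 (SE 0.078, adjusted p = 0.0304). MYLIP no longer passed whichever of the 6 libraries was dropped (adjusted p from 0.0522 to 0.0902), under quantile normalization (0.0751) and with the expression trend removed, so ABCA1 was then the 1 LXR target that rose. ABCG1, a second cholesterol exporter, was at 0.971, 1.14 and 1.08 FPKM in control and 1.02, 1.31 and 1.46 in 5aza libraries. Those groups overlap, with a 95% interval of the log2 change of -0.17 to 0.61.

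Set side by side, 15 of 19 SREBP2 targets fell, 0 rose and 4 did not pass (HMGCS1, CYP51A1, TM7SF2 and SC5D), with a median log2 change of -0.26. Of 3 LXR targets, 2 rose, 0 fell and 1 did not pass, with a median of 0.30. The 7 members in neither group had a median of -0.01, and LBR was the 1 that fell. The mean of log2(FPKM + 0.1) over the 19 SREBP2 targets was 5.05, 5.06 and 5.03 in control and 4.79, 4.77 and 4.74 in 5aza libraries. Over the 3 LXR targets it was 0.36, 0.47 and 0.38 in control and 0.78, 1.02 and 0.97 in 5aza libraries. The groups were thus apart in both lists, in opposite directions. The LXR count and mean are weak, since ABCA1 entered the test only through its 5aza values. It also changed most, by 1.04 on the log2 scale, beside 0.30 for MYLIP and 0.22 for ABCG1. Rises among the LXR targets numbered 1 in place of 2 without any 1 library, under quantile normalization, with the expression trend removed and where a mean of 1 FPKM was required. The median of the SREBP2 targets lay between -0.28 and -0.23 under the 14 alternatives, and falls among them numbered 11 to 16. The difference between the lists was not tested, and 3 genes are few to stand for LXR.

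**Figure D4:**
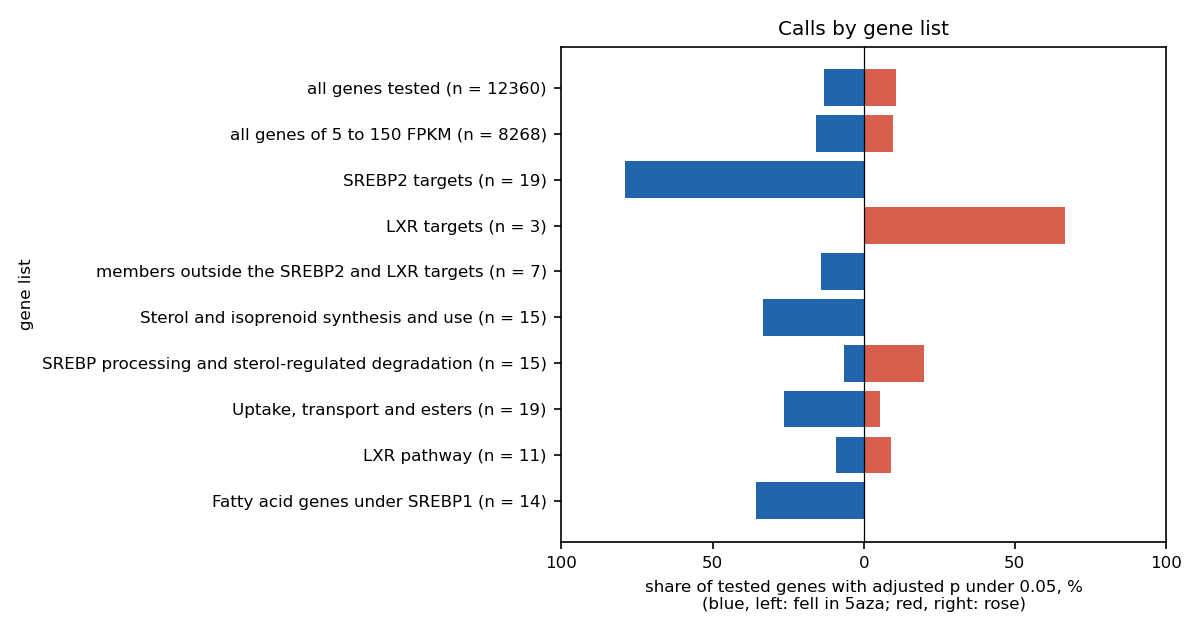
Share of tested genes that fell (left, blue) or rose (right, red) in 5aza libraries, in percent, for all genes, for genes of 5 to 150 FPKM and for each list (n is the number tested). Falls make up 78.9% of SREBP2 targets, and also 35.7% of the fatty acid genes, 33.3% of the other sterol and isoprenoid genes and 26.3% of the uptake genes, beside 13.1% of all genes.

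In a wider LXR list that leaves out the members, 11 genes were tested, of which 1 rose, 1 fell and 9 did not pass. That is 9.09% in each direction, near the 10.6% of all genes that rose and the 13.1% that fell, so the list as a whole shows no excess of rises. The gene that rose was APOE, which encodes an apolipoprotein that accepts exported cholesterol: it was at 1.18, 0.920 and 1.45 FPKM in control and 4.18, 5.16 and 4.36 in 5aza libraries. The groups are far apart, and the ratio of means was 3.86, a log2 change of 1.88 on the log2(FPKM + 0.1) scale (SE 0.17, adjusted p = 4.08e-04). The call held under all 14 alternatives run. The receptors NR1H2 (18.0 and 16.9 FPKM, adjusted p = 0.239) and NR1H3 (8.67 and 7.94 FPKM, adjusted p = 0.523) did not pass. The gene that fell was SREBF1, which encodes the fatty acid regulator SREBP1 and is driven by LXR and by SREBPs: it was at 76.0 FPKM in control and 55.9 in 5aza libraries (log2 change -0.44, SE 0.041, adjusted p = 4.59e-04).

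Of 14 fatty acid genes under SREBP1, 5 fell (35.7%, beside 13.1% of all genes), 0 rose and 9 did not pass. SCD, the desaturase, went from 306 to 204 FPKM (log2 change -0.58), ACSL3, an acyl-CoA synthetase, from 60.6 to 45.8 FPKM (-0.41) and ELOVL6, an elongase, from 31.3 to 23.7 FPKM (-0.40). The desaturases FADS1 and FADS2, chosen after their values were seen, also fell, by 0.31 and 0.35. FASN, fatty acid synthase, at 181 and 170 FPKM, did not pass (adjusted p = 0.334) and was likewise chosen after its values were seen.

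Among 15 tested genes that process SREBPs or degrade sterol sensors and enzymes, 3 rose, 1 fell and 11 did not pass. That is 20% rising and 6.67% falling, beside 10.6% and 13.1% of all genes tested. MBTPS1, the site-1 protease that cleaves SREBPs, was at 56.0 and 56.8 FPKM (adjusted p = 0.803). RNF145, a ubiquitin ligase of the endoplasmic reticulum that acts on SCAP and is an LXR target, rose from 38.6 to 46.0 FPKM (log2 change 0.25, adjusted p = 0.00313). SAR1A, a GTPase of the COPII vesicles that carry SCAP, rose from 48.7 to 55.4 FPKM (adjusted p = 0.00759), and SEC24D, a COPII coat protein, from 11.4 to 13.0 FPKM (adjusted p = 0.0442). The SEC24D call was lost without any 1 library other than 5aza replicate 3 (adjusted p between 0.0674 and 0.125).

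Of 15 other tested genes of sterol and isoprenoid synthesis and use, 5 fell, 0 rose and 10 did not pass. The falls are 33.3%, beside 13.1% of all genes tested and 15.8% of those at 5 to 150 FPKM. COQ2, which attaches the isoprenoid tail of coenzyme Q, fell by 0.22 on the log2 scale, and RCE1, a protease of prenylated proteins, by 0.22. The prenylation genes ICMT and RABGGTB, chosen after their values were seen, fell by 0.18 and 0.22. The COQ2 call was lost without control replicate 1, control replicate 2, 5aza replicate 2 or 5aza replicate 3 (adjusted p between 0.106 and 0.121). The RCE1 call was lost without control replicate 1, control replicate 2, 5aza replicate 1 or 5aza replicate 3 (0.0668 to 0.0843).

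Of 19 tested genes of uptake, transport and esters, 1 rose, 5 fell and 13 did not pass. That is 5.26% rising and 26.3% falling, beside 10.6% and 13.1% of all genes tested. CAV1, the caveolar protein that binds cholesterol, had means of 182 in control and 143 FPKM in 5aza libraries, a fall of 0.35 on the log2 scale (adjusted p = 4.42e-04). TMEM97, a sterol-regulated protein that binds NPC1, fell from 37.6 to 33.1 FPKM (adjusted p = 0.0344), a call lost without any 1 library other than 5aza replicate 3 (adjusted p between 0.0536 and 0.106). The lipoprotein receptor gene SCARB1 and the endosomal carrier gene STARD3, chosen after their values were seen, fell by 0.19 and 0.17. NCEH1, which hydrolyses cholesterol esters, rose from 8.19 to 10.3 FPKM (log2 change 0.32, adjusted p = 0.0257). Its call was lost without control replicate 2, control replicate 3, 5aza replicate 2 or 5aza replicate 3 (adjusted p between 0.0653 and 0.0762).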

How the data were processed

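RNA from 3 control and 3 5aza samples of HCT116 cells was sequenced, and 1 table of FPKM values per gene, deposited by the authors, was used. Per the submitters' processing notes, DESeq2 1.10.1, HTSeq 0.6.0 and STAR 2.5.1b were in use, as were 2 builds, Rnor_6.0 and GRCh38. Their roles, the program behind the FPKM values and the total reads are not stated there. Columns were matched to samples through the sample descriptions. Of 16715 distinct identifiers, 15421 had a symbol, and of rows sharing an identifier (11 cases) the 1 with the larger mean stayed. No counts were recovered.

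Values were used as log2(FPKM + 0.1). Genes reaching 0.5 FPKM in 3 or more of 6 libraries (12360, all 29 members among them) entered a two-sided test in limma 3.58.1 (R 4.3.3; lmFit, then eBayes with trend). P-values were adjusted over all of these genes by the Benjamini-Hochberg method. Fold changes on this scale understate those of low genes. The fit was tested on simulated data. Intervals are 95% intervals from limma, not adjusted for many genes. Coordinates are from GENCODE release 29 (GRCh38). Members and lists were chosen with earlier results of these data known. In the other lists, the rule named up to 3 genes in each direction with the largest changes past the threshold, and 5 fixed genes; some genes it named are not reported here. The range of 5 to 150 FPKM was chosen after seeing the data. The alternatives were 2 pseudocounts, 2 filters, quantile normalization, removal of the expression trend by loess, no variance trend, a replicate block and each library left out.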

Additional observations from a re-analysis of the deposited data

How the results depend on the processing

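Of the 18 members that passed the test, 12 kept their direction and their side of the threshold under every one of the 14 alternatives in which they were tested, and 0 changed sign under any. Counts of falls among the members, 16 in the report, lay between 12 and 17, and the causes of the changes below were not tested. Rises among the members and among the LXR targets, 2 each, numbered 1 each with a mean of at least 1 FPKM required, under quantile normalization, with the expression trend removed, and without any 1 library. ABCA1 was not tested where a mean of 1 FPKM was required, and MYLIP was the call lost in the other cases. Falls over all genes tested (1619) numbered 977 with the expression trend removed, 1041 with no variance trend and 940 to 1521 without 1 library. Over the other lists together, 17 fell and 5 rose. The falls there numbered 9 with the expression trend removed, 10 with no variance trend and 10 to 16 without 1 library, and the rises 3 to 5 without 1 library. Among the members and the rule's genes named in the report, some calls were lost. With no variance trend, PMVK, MVD, MSMO1, COQ2, RCE1, SEC24D and TMEM97 no longer passed (adjusted p 0.0551 to 0.0768). Under quantile normalization, PMVK, MYLIP, SEC24D and TMEM97 did not pass (0.0501 to 0.114). With the expression trend removed, PMVK, MVD, LBR, MSMO1, MYLIP, COQ2, RCE1 and TMEM97 did not pass (0.0533 to 0.0963). With no filter, COQ2 and SEC24D did not pass (0.0510 and 0.0511). SC5D passed where a mean of 1 FPKM was required (0.0496). Estimates near 0 changed sign: under quantile normalization the log2 change was 0.033 for CYP51A1, 0.073 for TM7SF2 and -0.034 for INSIG2, and with the expression trend removed it was 0.044, 0.072 and -0.016, and 9.0e-04 for SOAT1. Without 1 library it ranged from -0.039 to 0.022 for CYP51A1, -0.047 to 0.030 for TM7SF2, -0.026 to 0.084 for INSIG2, -0.089 to 0.050 for SOAT1 and -0.017 to 0.075 for MBTPS1. Where 1 library was left out, the fit pooled the spread of both groups.

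Control and 5aza samples share the replicate numbers 1 to 3. With the replicate block, 15 members fell and 2 rose, and over all genes 1673 fell and 1259 rose. PMVK (adjusted p = 0.0534), MSMO1 (0.0540), SEC24D (0.0503) and TMEM97 (0.0594) no longer passed and SC5D (0.0318) did. Deviations of same-numbered libraries from their group means correlated at 0.048, 0.077 and 0.068 across genes, and every library correlated best with its own number. These values are under 0.1, and whether same-numbered samples shared a batch was not tested. The fit behind the report treated them as unpaired. Depth is unknown, so the counting error of low genes such as ABCA1 and ABCG1 cannot be given.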
